A study of Sus scrofa with 6 samples.

Results

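Genes of the G1 checkpoint were compared between porcine embryonic fibroblasts (PEFs) and the induced pluripotent stem cells (piPSCs) made from them. The 9 genes were the cyclin-dependent kinase (CDK) inhibitors CDKN1A, CDKN1B, CDKN2A and CDKN2B, the p53 regulator MDM2, the retinoblastoma gene RB1 and the D cyclins CCND1, CCND2 and CCND3. They were chosen by symbol from the 18007 genes of the deposited table. Of these, 8 stood under their own symbol. The row of CDKN2A (ENSSSCG00000005134) is listed there as P14ARF and was found through its gene identifier.

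RNA of 3 PEF lines (PEF5, PEF7 and PEF8) and of 3 piPSC lines (piPSC5, piPSC7 and piPSC8) was sequenced, with 1 library per line. The fibroblasts came from the ear tips of embryos on day 90 of gestation, from a Large White boar mated with a Meishan sow. Lines of the same number share their origin, each piPSC line having been derived from that PEF line with lentiviral Oct4, Sox2, Klf4 and cMyc under doxycycline control, and colonies were picked onto mouse fibroblast feeders. Any feeder fragments are inseparable from porcine ones in these values. In whole cultures, fewer cells expressing a gene and less RNA of that gene per cell cannot be told apart either.

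Cells pass from G1 into S phase when D cyclins, bound to CDK4 or CDK6, phosphorylate the RB1 protein, which then releases the E2F transcription factors. The INK4 proteins (p16 from CDKN2A and p15 from CDKN2B) block CDK4 and CDK6, and the CIP/KIP proteins (p21 from CDKN1A and p27 from CDKN1B) block CDK2 complexes. A separate first exon of CDKN2A gives ARF, which holds back MDM2, the ubiquitin ligase that marks p53 for degradation, and p53 in turn activates both CDKN1A and MDM2. In mouse and human cells the INK4/ARF locus and the p53 pathway are known barriers to reprogramming.

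The library totals behind the scaling, recovered from the deposited values, were between 11010629 and 17836510 fragments. The listed genes held between 98.9% and 99.3% of these totals, which need not equal the sequenced fragments. All 10 fibroblast markers were lower in piPSCs, with a summed level of 4734 to 6997 FPKM (fragments per kilobase of gene, scaled to the depth of the library) in PEFs and 129.9 to 245.7 FPKM in piPSCs. The study reports low Oct4 mRNA but positive staining for Oct4 protein and for alkaline phosphatase in its piPSCs. Of 9 listed markers of pluripotent cells, POU5F1, the Oct4 gene, and LIN28A had no row here and could not be read. Of the 7 with a row, NANOG, SALL4, ESRRB, EPCAM and CDH1 stayed at or under 0.117 FPKM in all 6 libraries. SOX2 (0.129 to 3.01 FPKM) and LIN28B (0.281 to 8.90 FPKM) were seen in the piPSCs and were at or under 0.0367 FPKM in PEFs. The study describes all 3 lines as male, but the Y-linked gene DDX3Y had 0 fragments in the 4 libraries of lines 5 and 7, against 3439 and 4207 in PEF8 and piPSC8.

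CDKN2A and CDKN1A, the inhibitor genes among the 9 that passed the test, are shown with the 250 bases before their transcription start sites. The bases were read from RefSeq's Sscrofa11.1 on the plus strand. Capitals mark matches to the E2F words TTTCCCGC, TTTGGCGC, TTTCGCGC or TTTGCCGC on either strand. At least 1 of the 4 words stood in the upstream 250 bases of 3.39% of 13906 genes. CDKN2A (chr1:200774246-200774495) held 2 matches, which did not overlap, MDM2 and RB1 held 1 each, and the other 6 genes held 0. For CDKN2A the start site was that of the RefSeq gene listed as P14ARF. Any other start of the gene, such as one for p16, was not searched.
CDKN2A upstream: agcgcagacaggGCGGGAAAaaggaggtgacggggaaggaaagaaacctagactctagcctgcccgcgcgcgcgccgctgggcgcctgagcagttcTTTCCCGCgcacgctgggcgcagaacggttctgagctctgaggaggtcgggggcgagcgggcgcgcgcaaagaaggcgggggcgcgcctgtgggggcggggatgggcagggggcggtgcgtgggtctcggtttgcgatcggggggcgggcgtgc
CDKN1A upstream: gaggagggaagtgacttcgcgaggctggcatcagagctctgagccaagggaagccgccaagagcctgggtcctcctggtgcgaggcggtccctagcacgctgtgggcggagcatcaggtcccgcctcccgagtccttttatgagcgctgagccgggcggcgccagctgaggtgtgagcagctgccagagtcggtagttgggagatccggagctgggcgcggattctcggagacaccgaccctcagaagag

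The p53 response element was sought from 3000 bases before to 1000 bases after each start site, on both strands, with at most 2 mismatches outside the 4 central bases of each of its 2 repeats. The allowance of 2 was chosen after the matches with 1 had been seen. CDKN1A and MDM2, the p53 targets among the 9 genes, each held 1 match, against 1.37% of 13906 genes with at least 1. The CDKN1A match had 2 mismatches and counted only under the wider allowance, whereas the MDM2 match had 1. The share is given for scale and is no test of these matches. Capitals mark those central bases, and such a match is a resemblance in letters only. Relative to the start site, the CDKN1A match began at -2525 (chr7:32352251-32352270) and the MDM2 match at 788 (chr5:33106505-33106524).
CDKN1A element: gaaCATGtcctaaCATGttg
MDM2 element: ggtCAAGttcggaCAAGttc

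Between piPSCs and PEFs, CDKN2A rose and CDKN1A, CCND1 and CCND3 fell. The other 5 genes (CDKN1B, CDKN2B, MDM2, RB1 and CCND2) did not pass the test. The test was limma on log2(FPKM + 1), with passing set at an adjusted p under 0.05 over all 12428 genes tested, all 9 included. Of all genes tested, 51.7% passed, 30.3% higher and 21.5% lower in piPSCs, so 4 of 9 was no higher a share than that of all genes. The same 4 genes were those whose 3 piPSC libraries did not overlap the 3 PEF libraries, which held for 64.1% of all genes tested. Each group's libraries come from separate lines, so the errors below are between lines.

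**Figure D1:**
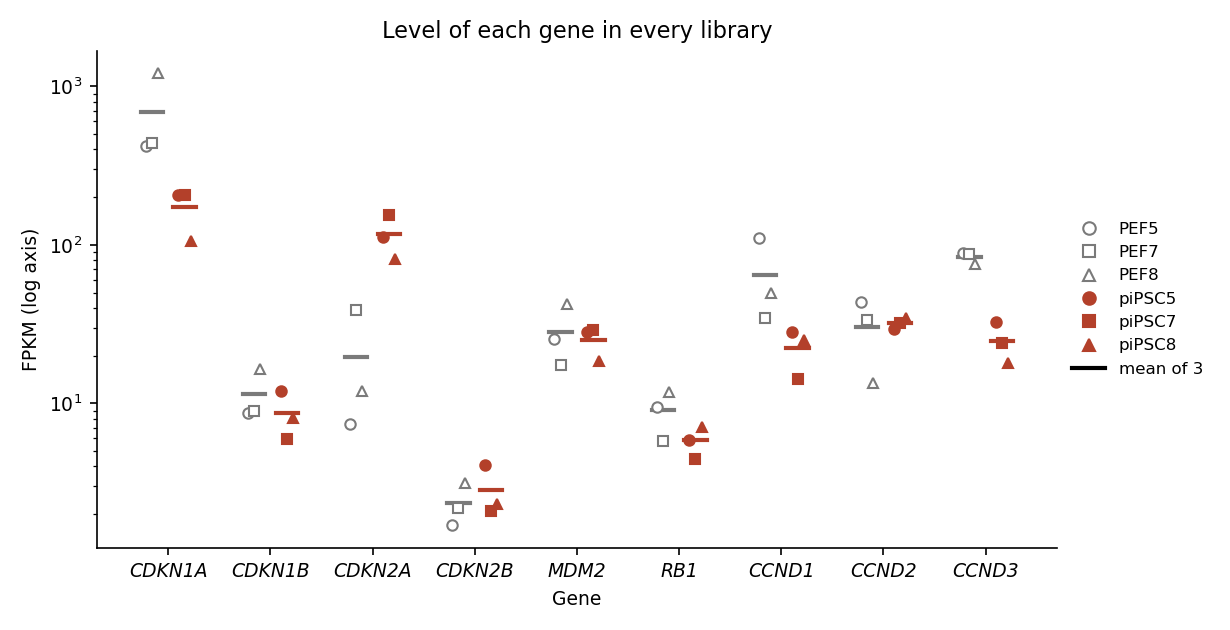
FPKM on a log axis of the 9 genes in every library, open grey symbols for PEFs and filled red ones for piPSCs, with bars at the mean of the 3 libraries of a group. The groups separate for CDKN1A, CDKN2A, CCND1 and CCND3 and overlap for the other 5 genes.

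FPKM values do not sum to the same total in each library (337074 to 348943 in PEFs and 420498 to 437853 in piPSCs), and over all tested genes the log2 fold change had a median of 0.20. With libraries rescaled to their median ratio it was -0.01, and with equal sums -0.07. Genes higher in piPSCs made up 58.5% of the calls as deposited, and 46.4% and 43.0% after these rescalings. Of the genes tested, 22.8% then passed higher and 26.3% lower with the median ratio, and 19% and 25.1% with equal sums. With the lines as a replicate block the shares were 28.0% and 19.7%. The 4 changes named above kept their direction and passed under both rescalings and with the block. The log2 fold changes of CDKN2B and CCND2 turned from positive to slightly negative under both rescalings, and neither passed.

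**Figure D2:**
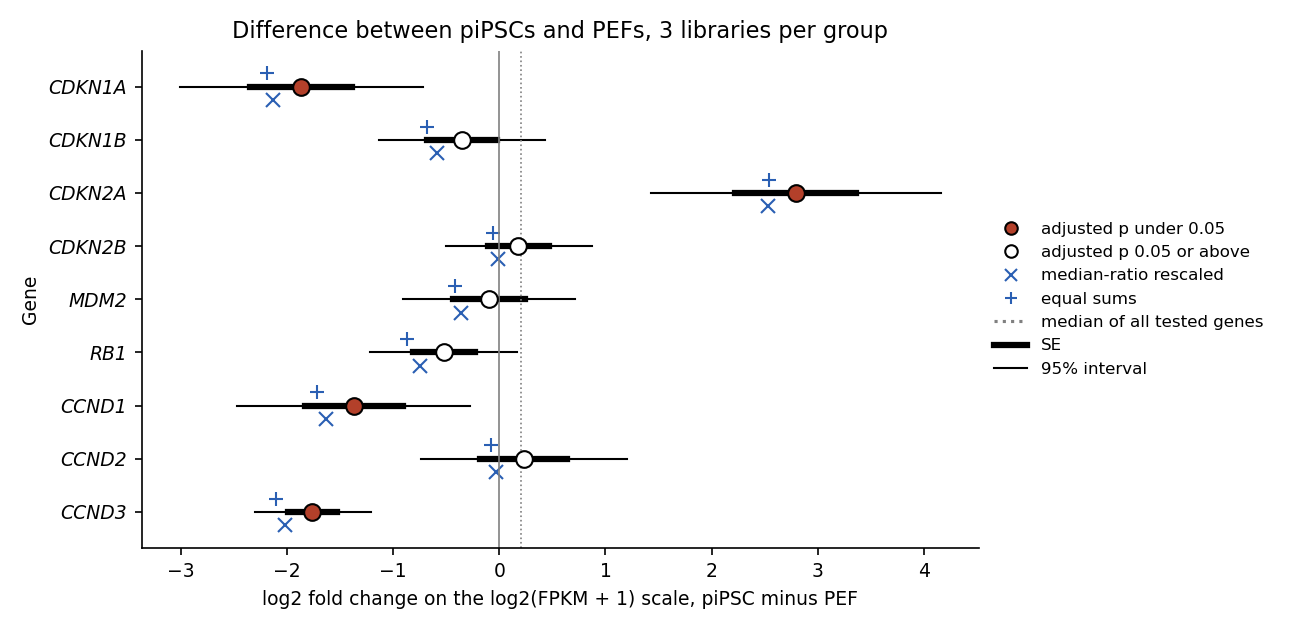
Log2 fold change of each gene, piPSC minus PEF, on the log2(FPKM + 1) scale, with the standard error as a thick bar and the 95% interval as a thin one, 3 libraries per group. Red circles passed the test, blue crosses and pluses give the 2 rescaled values, and the dotted line is the median of all tested genes at 0.20.

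CDKN1A (ENSSSCG00000001565, chr7:32359455-32362271, plus strand), which encodes p21, was the highest of the 9 genes in every PEF library. Its level was 417, 436 and 1206 FPKM in PEFs of lines 5, 7 and 8, and 205, 207 and 106 FPKM in the piPSCs. PEF8 stood far above the other PEF lines and piPSC8 was the lowest of all, so line 8 held both extremes. The mean was 687 ± 450.2 FPKM (SD, n = 3) in PEFs and 172 ± 57.8 in piPSCs, a 3.98-fold lower mean. On the log2 scale limma gave -1.87 (SE 0.48, adjusted p = 0.0172), and -1.37 without PEF8. Without line 5 (-2.29, adjusted p = 0.0624) or line 7 (-2.26, adjusted p = 0.0514) CDKN1A did not pass, though the fold change was larger. The counted model is 474 bases long and begins after the RefSeq start site used above (chr7:32354776), and 551 to 8660 fragments stood behind each value.

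CDKN1B (ENSSSCG00000037144, chr5:59731208-59736685, minus strand), which encodes p27, did not separate the groups. PEFs had 8.66, 9.01 and 16.5 FPKM and piPSCs 11.9, 5.98 and 8.12 FPKM in lines 5, 7 and 8. It was higher in piPSC5 than in PEF5 and lower in the other piPSC lines than in their PEFs. Its log2 fold change was -0.35, with a 95% interval from -1.13 to 0.43 (limma adjusted p = 0.400). The interval does not exclude a 2-fold fall.

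CDKN2A (ENSSSCG00000005134, chr1:200774496-200798854, plus strand) was the only 1 of the 9 genes to rise. It had 7.44, 39.0 and 11.9 FPKM in PEF5, PEF7 and PEF8, and 112, 155 and 81.8 FPKM in piPSC5, piPSC7 and piPSC8. Line 7 was the highest in both groups, and even PEF7 lay under the lowest piPSC line. The mean was 19.5 ± 17.1 FPKM (SD, n = 3) in PEFs and 116 ± 36.8 in piPSCs, a 5.98-fold higher mean. The gene rose by 2.79 on the log2 scale (SE 0.57, 95% interval 1.43 to 4.16, limma adjusted p = 0.00761). Without line 5 it was 2.32 and did not pass (adjusted p = 0.0663). Between 99 and 1376 fragments stood behind each value. The table gives 1 value for the gene and does not say which exons were counted, so transcripts of p16 and of ARF cannot be told apart here.

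CDKN2B (ENSSSCG00000034120, chr1:200761004-200770633, plus strand), which encodes p15 and lies 3862 bases before CDKN2A, was the lowest of the 9 genes in FPKM in both groups. It did not pass the test. Its level was 1.70, 2.19 and 3.15 FPKM in PEFs and 4.10, 2.1 and 2.32 FPKM in piPSCs of lines 5, 7 and 8. The groups overlapped, with piPSC5 the highest library. Limma gave a log2 fold change of 0.18 (95% interval -0.50 to 0.87, adjusted p = 0.613). CDKN2A stood 3.8 to 17.8 times above CDKN2B per kilobase in PEFs and 27.3 to 73.9 times above it in piPSCs. These ratios depend on the counted length, 746 bases for CDKN2A and 7216 for CDKN2B. In fragments, CDKN2B exceeded CDKN2A in PEF5 (219 against 99) and PEF8 (344 against 135), but not in PEF7 (264 against 486) or in any piPSC library.

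Between these genes lies CDKN2B-AS_2, a 46-base antisense feature (chr1:200774100-200774145, minus strand) that ends 350 bases before CDKN2A. Its fragments numbered 7, 5 and 3 in the PEFs and 15, 12 and 6 in the piPSCs. Limma put it 1.38 higher on the log2 scale (adjusted p = 0.0121). The library kit does not mark strand, so reads of this feature and of transcripts on the other strand cannot be told apart. On the far side of CDKN2A the next gene, MTAP, had 24.7 to 35.98 FPKM in PEFs and 39.3 to 52.6 in piPSCs (log2 fold change 0.54, limma adjusted p = 0.0559). DMRTA1, the next gene before CDKN2B, had 0.0244 to 0.137 FPKM in PEFs and 1.22 to 2.30 in piPSCs (log2 fold change 1.43, limma adjusted p = 0.00419).

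The make-up of the inhibitor transcripts differed between the groups. CDKN1A took 95.9%, 89.7% and 97.5% of the summed FPKM of the 4 inhibitors in PEF5, PEF7 and PEF8. In piPSCs it took 61.6%, 55.9% and 53.4%. CDKN2A took 0.965% to 8.02% in PEFs and 33.6% to 41.9% in piPSCs, so that p21 and INK4/ARF transcripts together made up nearly all of the sum in both groups. The summed level was 435 to 1238 FPKM in PEFs and 198 to 370 FPKM in piPSCs. CDKN1A stood 11.2 to 101 times above CDKN2A in PEFs and 1.29 to 1.83 times above it in piPSCs. The CDKN2A value may be that of p16, of ARF, which acts on MDM2 and not on a CDK, or of both. These shares are descriptions over 3 libraries per group. They depend on the counted length, 474 bases for CDKN1A and 746 for CDKN2A. In fragments, CDKN2A exceeded CDKN1A in piPSC7 (1376 against 1165) and piPSC8 (672 against 551), but not in piPSC5 (1256 against 1461).

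MDM2 (ENSSSCG00000000488, chr5:33087010-33164514, plus strand) did not pass the test, while CDKN1A, also a p53 target, fell. It had 25.4, 17.5 and 42.1 FPKM in PEFs and 28.1, 29.0 and 18.6 FPKM in piPSCs of lines 5, 7 and 8. The PEF range enclosed all 3 piPSC values. For MDM2 the log2 fold change was -0.10 (95% interval -0.91 to 0.71, limma adjusted p = 0.819), and its sign turned without PEF8 (0.22) and without piPSC8 (0.10). In PEFs, MDM2 and CDKN1A were both highest in PEF8.

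RB1 (ENSSSCG00000009401, chr11:19186760-19317688, minus strand) encodes the pocket protein that D cyclin kinases inactivate. It had 9.52, 5.77 and 11.7 FPKM in PEFs and 5.90, 4.45 and 7.13 FPKM in piPSCs of lines 5, 7 and 8. Each piPSC value was under that of its own PEF line, but the groups overlapped through PEF7. For RB1 the log2 fold change was -0.52 (95% interval -1.22 to 0.17, limma adjusted p = 0.169), and over the alternatives the adjusted p ran from 0.0575 to 0.437. LPAR6, a receptor gene, lies within RB1 on the other strand and had 2.44 to 3.61 FPKM in PEFs and 4.77 to 8.82 in piPSCs.

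Of the D cyclins, CCND1 and CCND3 fell and CCND2 did not pass the test. CCND1 (ENSSSCG00000037900, chr2:3620462-3633470, minus strand) had 110.4, 34.3 and 49.5 FPKM in PEF5, PEF7 and PEF8 and 28.1, 14.2 and 24.9 FPKM in piPSCs. PEF5 stood apart from the other PEF lines, and the lowest PEF library was not far above the highest piPSC library. The mean was 64.7 ± 40.3 FPKM (SD, n = 3) in PEFs and 22.4 ± 7.27 in piPSCs, a difference of -1.37 on the log2 scale (SE 0.46, limma adjusted p = 0.0431). It was -0.90 without PEF5 (adjusted p = 0.0838), and the call was lost in 8 of the 9 fits that left out a library or a line. PEF5 was also the PEF library with the highest proliferation genes (median log2(FPKM + 1) 2.93, against 1.03 and 1.28), whose part in the CCND1 level was not tested.

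CCND3 (ENSSSCG00000032284, chr7:37088204-37095027, minus strand) had the firmest difference of the 9 genes. It had 88.5, 87.5 and 75.9 FPKM in PEFs and 32.5, 23.9 and 17.9 FPKM in piPSCs of lines 5, 7 and 8. The PEF values lay close together, the piPSC values less so, and the lowest PEF value was over 2-fold above the highest piPSC value. The mean was 83.9 ± 7.0 FPKM (SD, n = 3) in PEFs and 24.8 ± 7.31 in piPSCs, a 3.39-fold lower mean. Limma gave -1.76 on the log2 scale (SE 0.23, 95% interval -2.30 to -1.21, adjusted p = 0.00144), and CCND3 passed in all 18 alternative fits. The 3′ end of CCND3 overlaps BYSL, a ribosome assembly gene on the other strand, which was higher in piPSCs (22.1 to 22.5 FPKM against 38.9 to 40.2).

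CCND2 (ENSSSCG00000038694, chr5:66087379-66114616, minus strand) had 43.5, 33.7 and 13.4 FPKM in PEFs and 29.4, 32.2 and 34.6 FPKM in piPSCs of lines 5, 7 and 8. The 3 piPSC values lay close together, inside the PEF range. For CCND2 the log2 fold change was 0.23 (95% interval -0.74 to 1.20, limma adjusted p = 0.654), and it was -0.25 without PEF8, the lowest library. CCND2 took 17.95%, 21.7% and 9.67% of the summed D cyclin FPKM in PEFs and 32.7%, 45.8% and 44.7% in piPSCs, without overlap. The share of CCND3 was 36.5% to 56.3% in PEFs and 23.1% to 36.1% in piPSCs. These did not overlap either, but PEF5 (36.5%) and piPSC5 (36.1%) were nearly equal. That of CCND1 was 22.1% to 45.5% in PEFs and 20.2% to 32.2% in piPSCs. The summed level of the D cyclins was 179 ± 55.6 FPKM (SD, n = 3) in PEFs and 79.2 ± 9.95 in piPSCs.

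**Figure D3:**
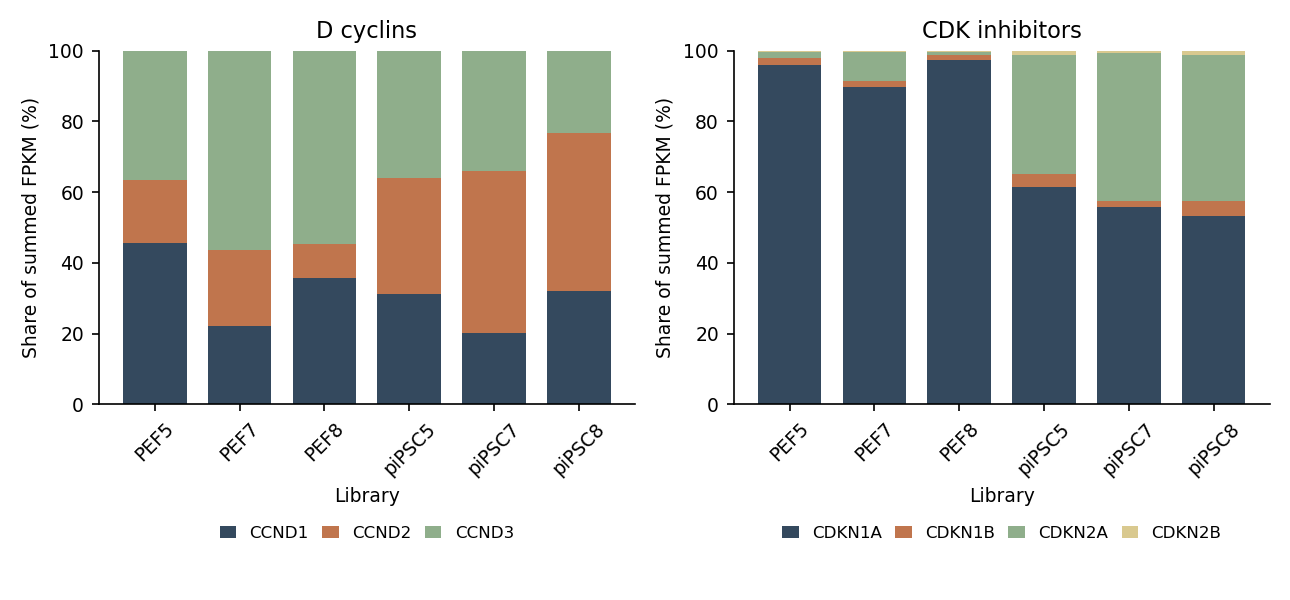
Share of each gene in the summed FPKM of the D cyclins and of the 4 inhibitors, in percent, with 1 stacked bar per library. CCND2 takes 9.67% to 21.7% in PEFs and 32.7% to 45.8% in piPSCs, and CDKN2A takes up to 8.02% in PEFs and at least 33.6% in piPSCs.

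Since the lines are matched by origin, the ratio of (FPKM + 1) was also taken within each line. CDKN2A was higher in the piPSCs of all 3 lines, with log2 ratios of 3.74, 1.97 and 2.68 in lines 5, 7 and 8. CDKN1A was lower in all 3, by far the most in line 8 (-1.02, -1.07 and -3.50). CCND3 gave -1.42, -1.83 and -2.02, and CCND1 gave -1.94, -1.21 and -0.96. RB1 was lower in all 3 lines by little (-0.61, -0.31 and -0.65). CDKN1B, CDKN2B, MDM2 and CCND2 had ratios of both signs. For CCND2 the ratio was 1.30 in line 8 and -0.55 in line 5, and for MDM2 it was -1.14 in line 8 and 0.70 in line 7. Each of these ratios rests on 1 library per side and carries no test.

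**Figure D4:**
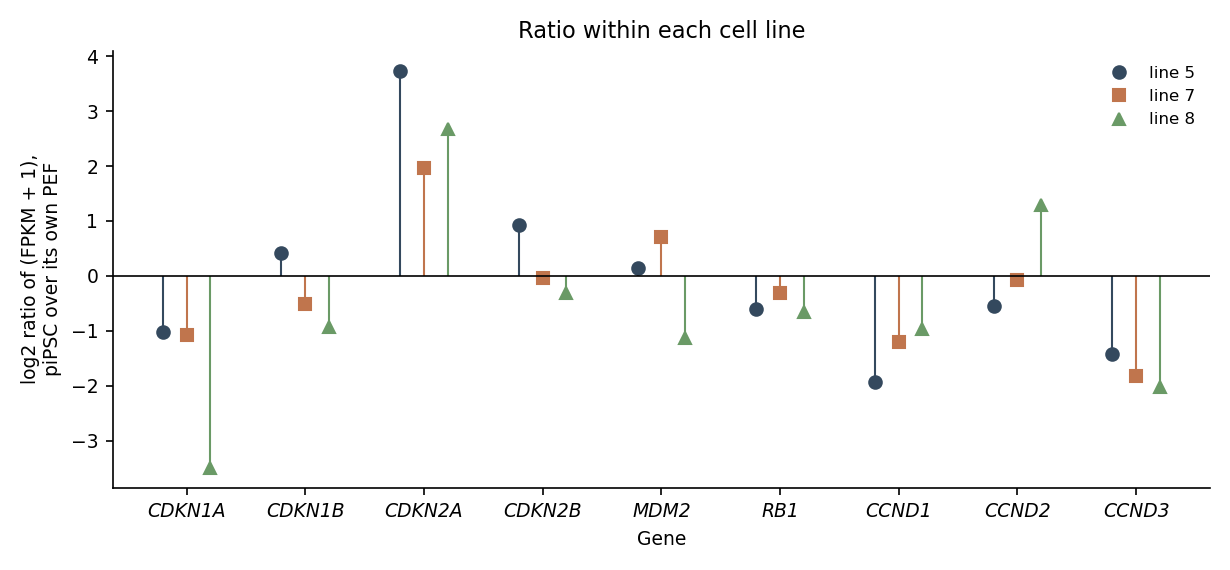
Log2 ratio of (FPKM + 1) of each piPSC line over its own PEF line for the 9 genes, with 1 symbol per line. CDKN2A lies above 0 in all 3 lines, CDKN1A, RB1, CCND1 and CCND3 lie below 0 in all 3, and the other 4 genes lie on both sides.

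The PEF lines differed among themselves by class of gene. All 3 D cyclins were highest in PEF5, as were all 13 tested proliferation genes and 21 of the 22 tested E2F targets. Of the other 6 genes, 5 (CDKN1A, CDKN1B, CDKN2B, MDM2 and RB1) were highest in PEF8, as were 14 of the 27 tested p53 targets. Over all genes tested, 37.9% were highest in PEF5 and 36.8% in PEF8. This ordering was seen in the data and carries no test.

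The levels of the 9 genes per kilobase fell in a different order in the groups. In PEFs, CDKN1A stood above all others in each library, followed by the means of CCND3 (83.9 FPKM), CCND1 (64.7), CCND2 (30.2), MDM2 (28.3), CDKN2A (19.5), CDKN1B (11.4), RB1 (9.01) and CDKN2B (2.35). Each neighbouring pair from CCND3 to RB1 overlapped in range over the 3 libraries, and CDKN2B lay under RB1 without overlap. In piPSCs the order was CDKN1A (172 FPKM), CDKN2A (116), CCND2 (32.1), MDM2 (25.2), CCND3 (24.8), CCND1 (22.4), CDKN1B (8.67), RB1 (5.83) and CDKN2B (2.84). CDKN1A was the highest in each piPSC library too, although its range overlapped that of CDKN2A. Ranges there also overlapped for CCND2 with CCND3, MDM2 with CCND3 and CCND1, CCND3 with CCND1, and CDKN1B with RB1. CDKN2A thus stood under MDM2 by its mean in PEFs and above all D cyclins in piPSCs.

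The surrounding genes were taken from 7 lists of pathway partners, described by their counts. Of 27 G1/S partners and other CDK inhibitors, 24 were tested, 13 passed higher and 2 lower in piPSCs (54.2% and 8.33%, against 30.3% and 21.5% of all genes tested), and the median log2 fold change was 1.02. CDK4, the main partner of the D cyclins, rose from 25.9 to 29.5 FPKM in PEFs to 53.5 to 58.3 in piPSCs (log2 fold change 0.97, limma adjusted p = 0.00168). CDK6, its close relative, did not pass (-0.11, limma adjusted p = 0.882). CDK2 was higher by 0.95 (limma adjusted p = 0.0400), but not with the lines as a replicate block (adjusted p = 0.0553) or after either rescaling. The largest increases were those of E2F7 (4.17), a repressor of E2F targets, E2F5 (3.45) and the pocket protein gene RBL1 (2.09). The genes that fell were 2 further inhibitors, CDKN1C (-3.11), which encodes p57, and CDKN2D (-1.26), which encodes p19. Of the list's other inhibitor genes, CDKN3 rose (1.81, limma adjusted p = 0.00462) and CDKN2C did not pass (0.25, limma adjusted p = 0.725).

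Of 19 genes that regulate p53, 18 were tested, 11 passed higher and 1 lower (61.1% and 5.56%, against 30.3% and 21.5% of all genes tested), and the median log2 fold change was 0.93. NPM1 (2.65), the nucleolar partner of ARF, the checkpoint kinase CHEK1 (2.06) and the ribosomal protein gene RPL5 (1.55), whose product binds MDM2, had the largest increases. NPM1 went from 60.4 to 103 FPKM in PEFs to 478 to 555 FPKM in piPSCs. After rescaling, 8 and 7 of the 18 genes passed higher, against 22.8% and 19% of all genes tested. The 1 gene that was lower (-1.46) did not pass with the replicate block.

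Of 32 p53 target genes, 27 were tested, and 4 passed higher and 6 lower (14.8% and 22.2%, against 30.3% and 21.5% of all genes tested). They did not move one way, with a median log2 fold change of 0.13 that was -0.12 and -0.18 after the rescalings. The 4 increases ran from 0.86 to 2.68, among them those of the mitochondrial reductase gene FDXR (1.94), the cyclin gene CCNG1 (1.33) and the nuclease gene AEN (0.86), the last not at equal sums. THBS1 (-6.98) and GDF15 (-5.02), which encode secreted proteins, and the receptor gene EPHA2 (-3.99) had the largest decreases. THBS1 went from 476 to 1033 FPKM in PEFs to 3.93 to 5.94 FPKM in piPSCs. The fibroblast markers fell with these genes, and their part in the p53 target counts was not tested.

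Of 26 E2F target genes, 22 were tested, and 18 passed higher and 0 lower (81.8% higher, against 30.3% of all genes tested), with a median log2 fold change of 2.02. Of the 26 genes, 9 are also in other lists, though CCNA2 and CDC25A among them had no row and were not tested. The replication genes MCM2 (3.52) and MCM3 (2.98) and the methylation maintenance gene UHRF1 (2.75) led it. All 13 tested proliferation genes were higher, led by PLK1 (3.60), CCNB1 (3.54) and TOP2A (3.43), and 12 were so after either rescaling. The median level of the E2F targets was 3.47 in PEF5 on the log2(FPKM + 1) scale, 1.22 in PEF7 and 1.97 in PEF8, and 4.48 to 4.59 in piPSCs.

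Of 15 genes for the turnover of D cyclins and CDKN1B, 14 were tested, 6 passed higher and 1 lower (42.9% and 7.14%, against 30.3% and 21.5% of all genes tested). SKP2, the F-box protein that marks p27 for degradation, rose from 4.32 to 6.93 FPKM in PEFs to 39.7 to 49.3 FPKM in piPSCs (log2 fold change 2.86, limma adjusted p = 0.000266). Its cofactor CKS1B rose by 0.79, though it did not pass at equal sums, and DDB1, a CUL4 adaptor, by 1.45. CRYAB, a partner of the CCND1 ligase subunit FBXO4, fell by 3.61. AMBRA1, the CUL4 receptor for D cyclins, did not pass (0.21, limma adjusted p = 0.432). After the rescalings only 3 and 2 of the 14 genes passed higher, no larger a share than the 22.8% and 19% of all genes tested.

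Of 17 regulators of the INK4 locus, 15 were tested, 6 passed higher and 4 lower (40% and 26.7%, against 30.3% and 21.5% of all genes tested). The Polycomb genes EZH2 (2.39), CBX2 (1.96) and RNF2 (1.52) had the largest increases. ETS2 (-3.41) and ETS1 (-3.28), known activators of CDKN2A, and TWIST1 (-1.79) had the largest decreases, the last not with the replicate block. Of the Polycomb genes known to repress the locus, CBX7 fell (-1.68, limma adjusted p = 0.00185) and BMI1 did not pass (-0.41, adjusted p = 0.205). The list thus held members in both directions, with a median of 0.10 that turned to -0.09 and -0.16 after the rescalings.

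**Figure D5:**
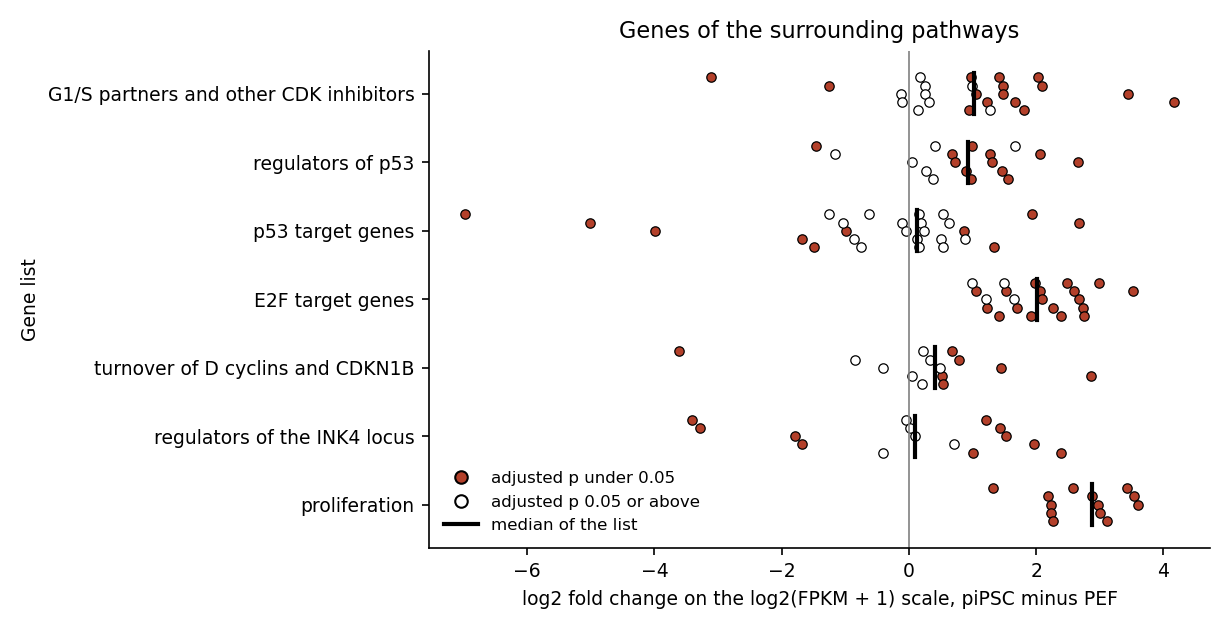
Log2 fold change, piPSC minus PEF on the log2(FPKM + 1) scale, of every tested gene of the 7 lists, red where the adjusted p was under 0.05 and open otherwise, with a bar at each list's median. E2F targets and proliferation genes lie to the right of 0, and p53 targets and INK4 regulators lie on both sides.

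For each of the 9 genes, the genes with the most similar profile were those with the smallest root mean square difference of centred log2(FPKM + 1) over the 6 libraries. CDKN1A was followed most closely by PDXK (0.18), LHFPL2 (0.21) and TGFBR3 (0.22), all of them highest in PEF8. CCND3 had PCMTD1 (0.11), TLN1 (0.12) and an unnamed gene (ENSSSCG00000007719, 0.15) beside it. CCND1 was followed less closely, by JPH3 (0.25), HAS3 (0.26) and CD47 (0.29). CDKN2A had no close match, with the short RNA SNORA71 (0.39) and the histone gene HIST1H4L (0.45) first and an unnamed 75-base gene (ENSSSCG00000037210, 0.46) next. Few fragments stood behind these 3 profiles, 0 to 12, 1 to 45 and 0 to 10 per library. MDM2 was matched by EHBP1 (0.0859), TNIP3 and STYK1, RB1 by GPR155 (0.10), FAM78A and IL6ST, and CDKN2B by PRKRA (0.10), ABTB1 and PLEKHJ1. CDKN1B was matched by NPFF (0.15), RCBTB2 and CWC22, and CCND2 by ZNF365 (0.17), SLC20A1 and WWOX. RCBTB2 is also the gene next to RB1. Depth limits some of these matches, with as few as 0 fragments in a library for JPH3 and STYK1, 1 for TNIP3 and 2 for PLEKHJ1.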

How the data were processed

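Poly-A RNA of 3 PEF lines and 3 piPSC lines was sequenced with paired 150 bp reads. The authors deposited FPKM values per gene. The submitters' processing notes name HISAT2 2.1.0, Bowtie2 2.2.3, HTSeq 0.6.0 and Sscrofa11.1, without roles, and the strand setting is not given in the sources used here. The deposited FPKM values were whole multiples of 1 fragment for all 18007 genes (within 0.0002 fragments), and the fragments per gene and library totals were recovered from these steps. Rows listed by identifier only (3375) were named from a table of gene names for 902 of them.

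Groups were compared with limma 3.58.1 in R 4.3.3 on log2(FPKM + 1), fitted with a mean-variance trend (no robust option), on the 12428 genes averaging 0.5 FPKM or more. The test was two-sided and unpaired, as is the general test in the study's statistics section, although the study's own RNA-seq comparison was made line by line. P-values had Benjamini-Hochberg adjustment over all genes tested. Genes passed at an adjusted p under 0.05. Fold changes are on the log2(FPKM + 1) scale, which understates the change of low genes. Intervals cover 95% and come from the same fit. An exact permutation test of 3 against 3 cannot go below 0.1 and was not used. The fit was tested on simulated data. The paired numbers mark the same line, and same-numbered libraries deviated from their group means with correlations of 0.0921, 0.0946 and 0.0800, against -0.121 to 0.0553 for the rest. A replicate block by line is therefore among the 18 alternatives. The others were a pseudocount of 0.1, no filter, a mean FPKM of at least 1, rescaling to the median ratio or to equal sums, quantile normalization, no trend, voom on the recovered fragments, and leaving out each library or line.

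The members and lists were chosen with earlier results of these data known. Some genes of the lists are not reported here and stay out of their counts. The rule for named genes took all 9 genes, CDK4, CDK6 and CDK2, up to 3 largest increases and 3 largest decreases past the test per list, the nearest genes on each side, and the 3 nearest profiles. Of the genes it took from the lists, 2 are given by value only. AEN, LPAR6, BYSL, AMBRA1, BMI1, CBX7 and the markers were named outside that rule, with their values seen. Nearest genes whose values bear on no result are not printed. Where 2 rows shared a symbol (RPL5), the row with the higher mean was used. Promoters were read around the RefSeq start site nearest to each gene's 5′ end, and 99.6% of 13956 protein-coding symbols overlapped a RefSeq transcript of their name. Other marker lists (keratinocyte, endothelial, blood cell, skeletal muscle, cartilage and melanocyte) summed to at most 28.7 FPKM in any library. Tools were Python 3.11.15, numpy 2.4.6, pandas 2.3.3, scipy 1.17.1 and matplotlib 3.10.9.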

Additional observations from a re-analysis of the deposited data

How the results depend on the processing

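With the lines as a replicate block, 5933 genes passed, 3483 higher and 2450 lower, against 6430, 3763 and 2667 without it. The block changed no call among the 9 genes, though CDKN1A came close to the threshold (adjusted p = 0.0499). Leaving out line 5 gave 3139 genes, 1805 higher and 1334 lower, and over all fits that left out a library or a line the counts ran from 3139 to 6001, from 1805 to 3595 and from 1334 to 2504. CCND3 passed in all 18 alternatives, CDKN2A in 17, CDKN1A in 16 and CCND1 in 9. Without a filter on low values CCND1 kept its log2 fold change of -1.37 with an adjusted p of 0.0732. Over the fits with a library or a line left out, the log2 fold change ran from -2.29 to -1.05 for CDKN1A, from 2.32 to 3.44 for CDKN2A, from -1.73 to -0.90 for CCND1 and from -1.96 to -1.55 for CCND3. It ran from -0.18 to 0.44 for CDKN2B, from -0.50 to 0.42 for MDM2 and from -0.31 to 0.62 for CCND2, none of which passed. After rescaling to the median ratio, CDKN2B was at -0.01 and CCND2 at -0.03, and at equal sums they were at -0.06 and -0.08. The median of the turnover list was 0.19 and 0.14 under these rescalings, that of the p53 regulators was 0.71 and 0.72, and that of the G1/S list was 1.42 with voom on the recovered fragments. The cause of these differences was not tested. Requiring a 2-fold change as well left 4575 genes. Depth limits the antisense feature, with 3 to 15 fragments, more than the 9 genes, which had at least 99 in every library.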
